A study of Mus musculus with 14 samples.

Results

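DNA methylation was followed at the Notch receptors Notch1, Notch2, Notch3 and Notch4, the ligands Dll1, Dll3, Dll4, Jag1 and Jag2, and the DNA-binding factor Rbpj, in mammary adipose tissue of lean, obese and formerly obese mice. The members were all CpG sites that the deposited table assigned by gene symbol to 1 of these 10 genes. There were 86 such sites of 75761 in the table, and 9 of the 10 genes had at least 1. Notch2 had 0 sites and was not analysed further.

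Notch receptors sit in the cell membrane and bind Delta-like and Jagged ligands on the neighboring cell. Binding is followed by cleavage of the receptor, and the freed intracellular domain enters the nucleus, where it joins Rbpj and coactivators at target genes such as those of the Hes and Hey families. In adipose tissue, Notch signaling is known for its part in the differentiation and browning of adipocytes, and Dll4 and Notch4 are known from the vascular endothelium.

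The tissue came from 14 wild-type female C57BL/6N mice (C57BL/6NCrl in the methods of the study), and all of them had been injected with E0771 cells, a mouse mammary cancer line, in the fat pad of the other side 22 weeks after randomization. CON-LFD mice (n = 3) received a low-fat control diet throughout, and DIO-HFD mice (n = 4) were made obese on a diet with 60% fat and stayed on it. DIO-LFD mice (n = 3) became obese on the same diet and were then switched to the low-fat diet. DIO-VSG mice (n = 4) were switched likewise and underwent vertical sleeve gastrectomy, the removal of most of the stomach, and the mice of the other groups had sham surgery. The pad used was tumor free but came from a tumor-bearing animal in every group, and it was analysed whole. In such tissue a smaller share of a cell type and a lower methylation level per cell cannot be told apart. The label of the tissue could be checked only in part, because adipocyte marker promoters had measured sites in 3 of 10 listed genes (Cfd, Lipe and Pparg), mammary epithelium in 3 of 9, lymphocytes in 3 of 10, endothelium in 1 of 7 and macrophages in 0 of 6. A promoter methylation level does not measure expression.

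Reduced-representation bisulfite sequencing reads CpG sites on short fragments cut by the enzyme MspI at CCGG. The unit was the methylation level, the methylated share of reads at a site, given here in percent. No read counts accompany the levels, so depth and counting error are unknown. DIO-HFD replicate 1 stood apart from its group. Its mean level over all 65610 tested sites was 66.2%. In the other 3 DIO-HFD mice it was 57.2% to 57.6%, and in the mice of the other groups 60.6% to 65.2%. The tests against DIO-HFD of the sites and genes named below are therefore also given without this mouse. It was picked for its high level in these same data, and leaving it out lowers the DIO-HFD mean. The p-values without it are thus too small to count as tests of the groups. They describe only how far the results rest on this mouse. A site was tested where its level had a standard deviation of at least 0.05 (as a fraction) over the 14 mice, which 76 of the 86 member sites met.

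The measured positions were unevenly spread over the family. Notch1 had 10 sites, Notch3 had 4 and Notch4 had 6. Among the ligands, Dll4 had 21, Jag2 had 20, Jag1 had 9, Dll3 had 5 and Dll1 had 2, and Rbpj had 9. By the flags of the table, 29 sites lay in promoters, 49 in gene bodies (exons or introns) and 8 elsewhere. For Dll4 the gene body flag does not refer to Dll4, because all 21 sites lay 3571 to 202 bp upstream of its start, inside the overlapping gene Gm14207. Of the 86 sites, 42 were in the CCGG motif itself, and all measured sites of Jag1, Rbpj and Dll1 were.

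The sequences that carry the results are given below on the plus strand of mm10, as in RefSeq, with the CpG sites measured in capitals. The first is an MspI fragment in intron 2 of Notch1 (chr2:26487700-26487850), which held 6 measured sites, 2 at its ends and 4 inside, and showed the widest spread between mice in the receptor. The second is in intron 1 of Notch4, close to the start of the gene (chr17:34564939-34565017). The third lies upstream of the Jag2 start (chr12:112930399-112930470).
Notch1 intron 2: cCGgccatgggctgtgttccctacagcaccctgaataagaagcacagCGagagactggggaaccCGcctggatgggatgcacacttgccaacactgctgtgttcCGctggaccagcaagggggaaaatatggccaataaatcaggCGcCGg
Notch4 intron 1: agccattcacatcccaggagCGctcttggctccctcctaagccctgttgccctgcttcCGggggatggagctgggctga
Jag2 upstream: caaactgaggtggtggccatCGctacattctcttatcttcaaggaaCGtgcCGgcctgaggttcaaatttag

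A second set of fragments is shown because their measured sites are the 2 CCGG ends and nothing between. They lie before the start of the transcript listed in the table for Dll1 (chr17:15376282-15376412), for Jag1 (chr2:137116949-137117092) and for Rbpj (chr5:53589242-53589395). Those of Dll1 and Rbpj are inside the annotated span of the gene, and that of Jag1 is outside it. Each holds further CpG sites, in lower case, with no level in the table.
Dll1: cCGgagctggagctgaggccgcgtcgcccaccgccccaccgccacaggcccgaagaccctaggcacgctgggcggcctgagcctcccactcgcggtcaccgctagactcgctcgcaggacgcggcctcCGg
Jag1: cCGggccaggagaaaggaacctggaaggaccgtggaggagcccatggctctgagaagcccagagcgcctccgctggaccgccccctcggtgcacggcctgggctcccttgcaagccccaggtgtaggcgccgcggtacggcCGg
Rbpj: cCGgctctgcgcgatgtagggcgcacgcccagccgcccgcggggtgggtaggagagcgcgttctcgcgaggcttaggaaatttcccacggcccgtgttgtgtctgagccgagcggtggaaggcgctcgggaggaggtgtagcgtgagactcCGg

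Notch1, the receptor with the most measured sites, had lower levels in 3 of the 4 DIO-HFD mice than in most other mice. Over the 4 inner sites of the intron 2 fragment, the mean level was 60.1%, 55.6% and 36.4% in the CON-LFD mice. In the DIO-HFD mice it was 67.7% in replicate 1 and 14.1%, 26.0% and 24.7% in replicates 2 to 4. In the DIO-LFD mice it was 68.0%, 32.4% and 55.8%, and in the DIO-VSG mice 64.2%, 62.2%, 65.0% and 55.2%. Replicates 2 to 4 of DIO-HFD therefore lay below every other mouse, replicate 1 lay among the highest, and the DIO-VSG mice lay close together. The group means were 61.6% ± 4.46 (SD, n = 4) in DIO-VSG and 33.1% ± 23.7 (SD, n = 4) in DIO-HFD, or 21.6% ± 6.51 (SD, n = 3) without replicate 1. The 4 inner sites had nearly equal means over the 14 mice, from 47.8% to 50.3%, whereas the 2 CCGG ends had means of 68.7% and 76.6%.

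Promoter sites of lymphocyte marker genes (9 sites in Cd79b, Lat and Zap70) had the reverse order of mice. Their mean level was 45.5%, 48.5% and 60.9% in CON-LFD, 40.3%, 67.3%, 68.8% and 65.8% in DIO-HFD, 44.4%, 59.1% and 54.3% in DIO-LFD, and 42.1%, 45.5%, 45.4% and 44.3% in DIO-VSG. The mice with the lowest Notch1 levels, DIO-HFD replicates 2 to 4, were thus the highest here, and DIO-HFD replicate 1 was the lowest. At adipocyte markers (6 sites) DIO-HFD had 50.8%, 35.8%, 44.4% and 44.1% and DIO-VSG 51.1% to 57.2%, at mammary epithelial markers (11 sites) 69.2%, 47.9%, 56.6% and 53.7% and 62.3% to 67.6%, and at the endothelial marker Cldn5 (2 sites) 25% to 30.1% and 30% to 32.8%. The part of cell composition in the differences at Notch1 and the other members was not tested.

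**Figure D1:**
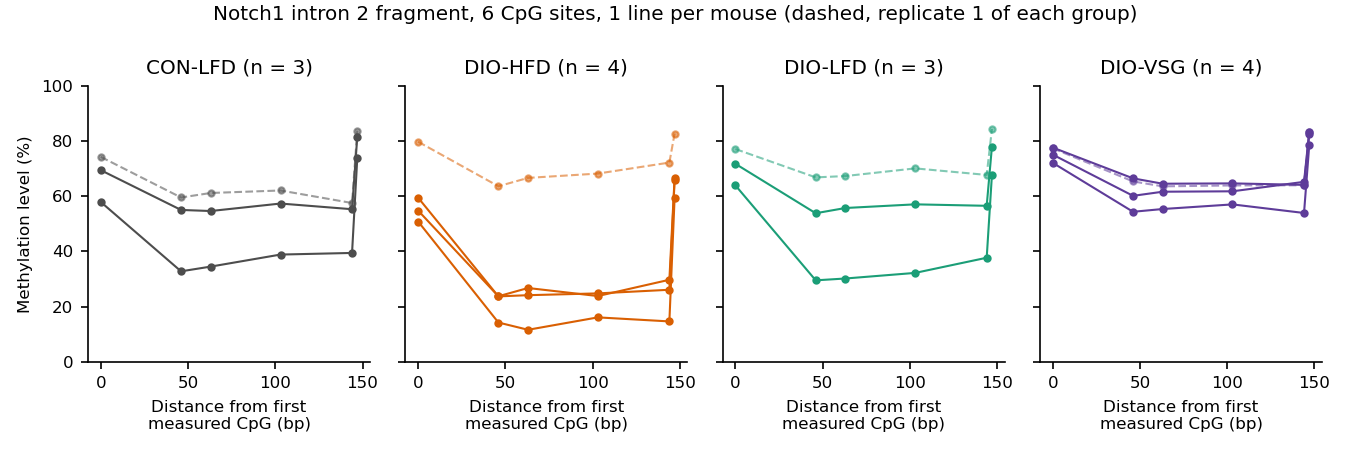
Methylation level (%) at the 6 measured CpG sites of the Notch1 intron 2 fragment against distance from the first site (bp), with 1 panel per group and 1 line per mouse; dashed lines are replicate 1 of each group. The inner sites of DIO-HFD replicates 2 to 4 average 14.1%, 26.0% and 24.7%, below every other mouse, and DIO-HFD replicate 1 averages 67.7%.

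At the inner Notch1 site with the widest spread (chr2:26487764), the difference between DIO-VSG and DIO-HFD was 29.0 percentage points. Differences were tested with limma on M, the log2 ratio of methylated to unmethylated level, and each p was adjusted over all tested sites after Benjamini and Hochberg. The 3 comparisons with DIO-HFD share its 4 mice. In M this difference was 1.87 (SE 0.700), with an unadjusted p of 0.0189 and a limma adjusted p of 0.156. The same site gave 1.22 (SE 0.756, adjusted p = 0.620) for CON-LFD and 1.28 (SE 0.756, adjusted p = 0.518) for DIO-LFD against DIO-HFD, and all 3 groups overlapped DIO-HFD because of replicate 1. Without that mouse the M differences were 2.61 for DIO-VSG (adjusted p = 0.00505), 1.96 for CON-LFD (adjusted p = 0.0496) and 2.01 for DIO-LFD (adjusted p = 0.0411).

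Another Notch1 site in intron 2 (chr2:26493999), in CCGG and 9824 bp from the start, had levels of 78.3%, 82.7% and 74.6% in CON-LFD and 77.8%, 65.4%, 60.6% and 57% in DIO-HFD. The DIO-LFD mice had 77.7%, 81.5% and 73.1% and the DIO-VSG mice 74.9%, 72.9%, 70.5% and 79.1%. Again 3 DIO-HFD mice were below all others and replicate 1 was not. Against DIO-HFD, CON-LFD was higher by 0.92 in M (SE 0.363, adjusted p = 0.611) and DIO-LFD by 0.83 (SE 0.363, adjusted p = 0.494). Without DIO-HFD replicate 1 it was 1.20 (adjusted p = 0.0272) and 1.11 (adjusted p = 0.0302).

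The site 22665 bp upstream of Notch1 (chr2:26526486), outside genes by the flags, had 74.9%, 74.7% and 51.7% in CON-LFD, 72%, 32.5%, 34.4% and 42.1% in DIO-HFD, 72.7%, 55.5% and 60.8% in DIO-LFD, and 78.4%, 73.4%, 75.2% and 70.3% in DIO-VSG. The pattern was that of intron 2, with replicate 1 of DIO-HFD inside the range of the other groups. DIO-VSG exceeded DIO-HFD by 29.1 points, or 1.77 in M (SE 0.516, adjusted p = 0.150), and by 2.30 in M without replicate 1 (adjusted p = 0.00224). The single Notch1 promoter site (exon 1, in a CpG island, CCGG) had group means from 43.6% ± 8.44 (SD, n = 4) in DIO-HFD to 54.0% ± 6.04 (SD, n = 3) in DIO-LFD, and all groups overlapped. DIO-LFD exceeded DIO-HFD there by 0.60 in M, and by 0.74 without replicate 1 (limma adjusted p = 0.165).

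Notch4, the receptor best known from endothelial cells, had 2 sites in intron 1 within 731 bp of its start. Their mean level was 75.8%, 74.5% and 50.8% in CON-LFD and 74.0%, 44.8%, 40.9% and 45.9% in DIO-HFD. It was 70.6%, 69.6% and 73.4% in DIO-LFD and 78.8%, 78.6%, 76.5% and 76.0% in DIO-VSG. Every DIO-VSG mouse was above every DIO-HFD and every DIO-LFD mouse at the site in CCGG (chr17:34564997), where DIO-VSG had 76.7% to 81.1% and DIO-HFD 47.0% to 76.5%. That site was picked for a small p, and the share of all sites without overlap is not given. The difference there was 24.0 points, or 1.57 in M (SE 0.436), with the smallest unadjusted p of any member site, 0.00324, and an adjusted p of 0.150. The neighboring site outside CCGG (chr17:34564959) gave 28.2 points, or 1.74 in M (SE 0.504, adjusted p = 0.150), with overlap. Without DIO-HFD replicate 1 the differences were 2.00 and 2.22 in M, with adjusted p of 0.00221 and 0.00297.

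Against DIO-HFD, the second Notch4 site also gave 1.44 in M for DIO-LFD (SE 0.544, adjusted p = 0.494), and 1.93 without replicate 1 (adjusted p = 0.0190). In exon 10 of Notch4 (chr17:34572503) the order of groups was different, with 66.9% ± 7.48 (SD, n = 3) in CON-LFD, 62.6% ± 10.9 (SD, n = 4) in DIO-HFD, 61.2% ± 10.01 (SD, n = 3) in DIO-LFD and 73.6% ± 7.38 (SD, n = 4) in DIO-VSG. These levels overlapped between all groups, and the difference of DIO-VSG from DIO-LFD was 0.82 in M (SE 0.456, adjusted p = 0.945).

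Notch3 showed no such order in its averages. Its gene body mean was 61.9% ± 4.60 (SD, n = 3) in CON-LFD, 61.6% ± 2.08 (SD, n = 4) in DIO-HFD, 63.1% ± 3.34 (SD, n = 3) in DIO-LFD and 62.8% ± 1.69 (SD, n = 4) in DIO-VSG, a range smaller than the spread within groups. Of its 3 sites, 2 are the CCGG ends of 1 MspI fragment (r = -0.84). Their sum stayed between 96.5% and 111.5% in the 14 mice, so their average could show little of a group order. The remaining site (chr17:32141365) had means of 84.7% in CON-LFD, 81.2% in DIO-HFD, 88.3% in DIO-LFD and 87.0% in DIO-VSG, and all groups overlapped. The promoter site (chr17:32166540, intron 1) ranged from 40.4% in DIO-VSG to 46.8% in CON-LFD. At the intron 2 island site chr17:32162680, DIO-LFD had 65.5%, 74.2% and 60.0% and DIO-VSG had 80.7%, 71.2%, 72.6% and 78.9%, which gave 0.64 in M (SE 0.364, adjusted p = 0.945).

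Among the ligands, Jag2 followed the order seen at Notch1 and Notch4 in part. Over its 4 promoter sites outside CCGG, the mean level was 38.2%, 44.5% and 38.3% in CON-LFD, 49.4%, 29.9%, 37.8% and 23.6% in DIO-HFD, 48.0%, 42.9% and 41.8% in DIO-LFD, and 45.4%, 45.8%, 48.9% and 45.8% in DIO-VSG. All 4 DIO-VSG mice were above DIO-HFD replicates 2 to 4, and replicate 1 was above them all. The site chr12:112928975 among them did not follow, with means of 41.6% in CON-LFD, 54.1% in DIO-HFD, 54.5% in DIO-LFD and 54.3% in DIO-VSG. Over 5 intron 2 sites of Jag2 outside CCGG, CON-LFD (25.3%) was level with DIO-HFD (25.1%), and DIO-LFD had 31.5% and DIO-VSG 38.2%. The site 951 bp upstream of the start (chr12:112930445) had 48.1%, 20.3%, 31.2% and 14.5% in DIO-HFD and 50.3%, 46.9%, 44.1% and 46.8% in DIO-VSG. Against DIO-HFD it gave 1.24 in M for DIO-VSG (SE 0.444, adjusted p = 0.153) and 1.07 for DIO-LFD (SE 0.480, adjusted p = 0.494). These became 1.67 (adjusted p = 0.00497) and 1.51 (adjusted p = 0.0246) without DIO-HFD replicate 1.

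The 5 Jag2 sites further upstream, 3370 to 4945 bp from the start, had a mean level of 69.1%, 70.7% and 59.6% in CON-LFD, 72%, 56.7%, 56.2% and 53.9% in DIO-HFD, 73.0%, 62.8% and 71.8% in DIO-LFD, and 72.9%, 71.6%, 71.0% and 73.5% in DIO-VSG. These levels were higher than in the promoter, and DIO-HFD replicates 2 to 4 were again the lowest mice. The furthest site (chr12:112934439) lies within the span of another gene, Nudt14, and did not share this order. Its means were 87.6% in CON-LFD, 90.9% in DIO-HFD, 91.5% in DIO-LFD and 95.1% in DIO-VSG. In intron 2 of Jag2, the CCGG site chr12:112928432 swung between 0% and 60.6%, and its difference in M for DIO-VSG against DIO-HFD was 1.95 with an SE of 1.35 (adjusted p = 0.360), or 2.48 without replicate 1 (adjusted p = 0.219). The island promoter site chr12:112929785, also in CCGG, had 76.1%, 93.8% and 80.4% in DIO-LFD and 69.7%, 72%, 64.9% and 76.7% in DIO-VSG. It was the only member site with an unadjusted p under 0.05 between the weight-loss groups, and DIO-VSG was lower by 12.6 points (M difference -1.18, SE 0.487, adjusted p = 0.945).

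**Figure D2:**
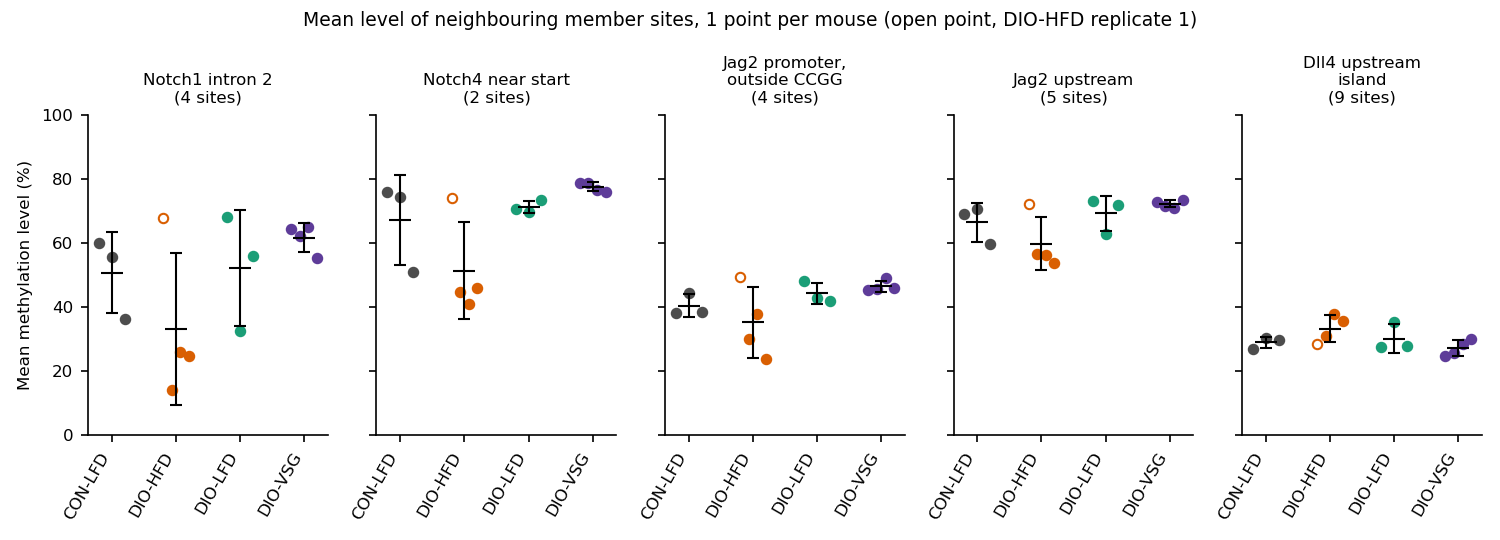
Mean methylation level (%) over neighboring sites of Notch1, Notch4, Jag2 and Dll4, with 1 point per mouse, and black bars for the group mean and SD (n = 3, 4, 3 and 4); the open point is DIO-HFD replicate 1. The 4 DIO-VSG mice lie between 76.0% and 78.8% at Notch4, whereas at the Dll4 island the DIO-HFD mean of 33.2% is above the DIO-VSG mean of 27.1%.

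Dll3, a ligand that acts mainly inside the cell that makes it, had the highest gene body level of the members. The mean over its 3 sites in intron 2 was 84.5% ± 1.99 (SD, n = 3) in CON-LFD, 79.98% ± 6.13 (SD, n = 4) in DIO-HFD, 84.8% ± 4.70 (SD, n = 3) in DIO-LFD and 87.4% ± 0.806 (SD, n = 4) in DIO-VSG. At chr7:28300297 the DIO-HFD mice had 87.6%, 67.5%, 70.4% and 69.9% and the DIO-VSG mice 87.5%, 80.8%, 85.0% and 82.5%. Replicate 1 of DIO-HFD was again the high value. DIO-VSG exceeded DIO-HFD there by 0.79 in M (SE 0.425, adjusted p = 0.250), and by 1.18 without replicate 1 (adjusted p = 0.0210).

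Dll4, an endothelial ligand, had its lowest group mean in DIO-HFD at 5 of its 21 sites. That count was 10 of 10 for Notch1, 12 of 20 for Jag2, 4 of 5 for Dll3, 3 of 6 for Notch4, 5 of 9 for Rbpj, 1 of 2 for Dll1, 1 of 4 for Notch3 and 1 of 9 for Jag1. Many of these sites are close neighbors, and the share over all sites of the table is not given. Over the 9 sites in the upstream CpG island, the mean level was 27.0%, 30.3% and 29.7% in CON-LFD, 28.6%, 30.9%, 37.7% and 35.7% in DIO-HFD, 27.4%, 35.3% and 27.7% in DIO-LFD, and 24.7%, 25.6%, 28.4% and 29.9% in DIO-VSG. In M, 7 of the 21 Dll4 sites were higher in DIO-VSG than in DIO-HFD. Among the tested sites of the other members, 10 of 10 were higher for Notch1, 18 of 20 for Jag2, 4 of 4 for Notch4, 3 of 3 for Dll3, 5 of 9 for Rbpj, 2 of 4 for Notch3, 1 of 2 for Dll1 and 1 of 3 for Jag1. The median level of all tested sites was also higher in DIO-VSG than in DIO-HFD, by 7.69 points. The share of all sites that were higher is not given, so these counts cannot be called particular to these genes. At chr2:119324103 the DIO-HFD mice had 42.6%, 56.7%, 55.6% and 36.9% and the DIO-VSG mice 33.8%, 35.8%, 31.6% and 32.0%. These groups did not overlap, though the share of all sites without overlap is not given. The M difference was -0.86 (SE 0.307, adjusted p = 0.153), or -0.96 without replicate 1 (adjusted p = 0.0303).

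At chr2:119324129, in CCGG, CON-LFD had 46.3%, 49.8% and 56% and DIO-HFD 66.4%, 61.8%, 59.8% and 64.7%. These groups did not overlap, but the site was picked for a small p and the share of all such sites is not given. The M difference was -0.72 (SE 0.257, adjusted p = 0.611), or -0.66 without replicate 1 (adjusted p = 0.0804). The Dll4 site chr2:119323078 went the other way, with 86.8%, 75.9%, 77.6% and 72.7% in DIO-HFD and 84.9% to 90.1% in the mice of the other 3 groups. There the M differences were 0.80 for CON-LFD (adjusted p = 0.611), 0.91 for DIO-LFD (adjusted p = 0.494) and 0.89 for DIO-VSG (adjusted p = 0.151). Without replicate 1 they were 1.06 (adjusted p = 0.0263), 1.17 (adjusted p = 0.0173) and 1.15 (adjusted p = 0.00505). The only site flagged as a promoter of Dll4, 202 bp upstream, ranged from 30.4% to 63.6% over the mice and its groups overlapped.

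Dll1, Jag1 and Rbpj were the members for which CCGG sites alone were measured, and their group averages differed little. The mean over the 2 Dll1 sites was 49.7% in CON-LFD, 49.9% in DIO-HFD, 49.8% in DIO-LFD and 48.9% in DIO-VSG, with SDs of 1.01 to 1.27. Over the 6 Rbpj promoter sites the group means were 49.0% to 49.5%, and the lowest and highest of the 14 mice were 48.1% and 50.3%. Over the 7 Jag1 promoter sites the means were 46.2% to 47.2%. Where the levels at both ends of a fragment add up to a nearly constant sum, as described below, their average can show little of a group difference.

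Single sites of these genes varied more than their averages. At the first end of the Rbpj fragment (chr5:53589243) DIO-HFD had 50%, 41.4%, 45.0% and 43.9% and DIO-VSG 32.0%, 26.8%, 35.0% and 37.3%. At the other end (chr5:53589393) DIO-HFD had 49.6%, 55.6%, 52.6% and 55.0% and DIO-VSG 60.8%, 74.4%, 64.4% and 64.5%. Neither end overlapped between the groups, but the first was lower in DIO-VSG (M difference -0.74, SE 0.285, adjusted p = 0.159) and the second higher (0.77, SE 0.299, adjusted p = 0.161). The 2 ends mirror each other (r = -0.90) and are not separate observations. They were named after their values were seen, and the share of all sites without overlap is not given. With replicate 1 of DIO-HFD left out, the M differences were -0.65 (adjusted p = 0.0896) and 0.70 (adjusted p = 0.0901). The sum of both ends stayed between 91.1% and 101.8% in the 14 mice.

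The 2 ends of a fragment added up to about 100% at most members. Of 12 member fragments with both CCGG ends measured, 10 had a median sum over the mice between 90% and 110%. Over all 7532 such fragments in the table the share was 49.5%. It was 76.6% of the 2866 with both ends in CpG islands and 24.7% of the 3866 with neither end in one. Most but not all of the member fragments have both ends in islands. Among 864 pairs of neighboring island sites outside CCGG, spaced 40 to 220 bp, the share was 7.06%. At Dll1 the sum ranged from 95.9% to 102.7%, and levels of the 2 ends had a Pearson r of -0.92 over the 14 mice. At the Jag1 fragment shown above, DIO-LFD replicate 3 had 0% at one end and 100% at the other, and DIO-VSG replicate 2 had 0% and 58.1%. Among the 12, the Notch1 intron 2 fragment was an exception, with r = 0.93 and sums of 110.4% to 162.5% (median 150.9%). Neither of its ends lies in a CpG island. Fragments of that class had a median of 135.9%, with quartiles of 107.4% and 161.7%, so its sum was not unusual among them. The Jag2 fragment, with 1 end in an island, also had a higher median sum, 132.8%, but its ends varied inversely (r = -0.72). These correlations describe points that share libraries, and the origin of the pattern was not tested.

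**Figure D3:**
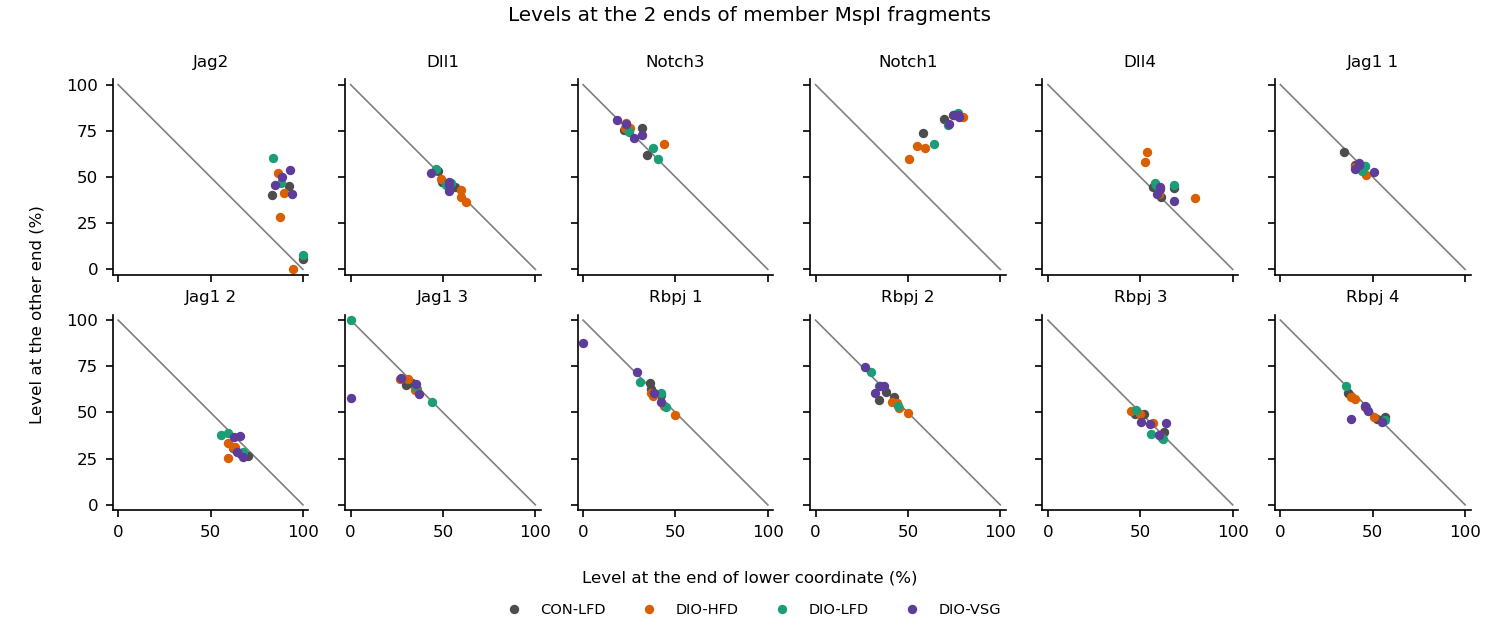
Methylation level (%) at the end of higher coordinate against the end of lower coordinate for 12 member MspI fragments, 1 point per mouse, colored by group; gray lines mark a sum of 100%. Points of 10 fragments lie along the line, whereas those of Notch1 rise together, with r = 0.93.

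Most member promoter sites were such CCGG sites. In promoters of all genes in the table, island sites in CCGG had a median level of 49.8% (6631 sites), against 23.5% outside it (3772 sites). Of the 29 member promoter sites, 23 were in CCGG, with group means of 49.1% to 50.6%. The 6 outside CCGG had 46.3% ± 3.87 (SD, n = 3) in CON-LFD, 39.2% ± 11.3 (SD, n = 4) in DIO-HFD, 49.1% ± 1.502 (SD, n = 3) in DIO-LFD and 52.6% ± 1.96 (SD, n = 4) in DIO-VSG. They were the 4 Jag2 sites above, the Notch4 site chr17:34564959 and the only Dll4 promoter site. This split was chosen after seeing the data, and group levels of all promoter sites outside CCGG are not given.

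Across all tested member sites, none passed an adjusted p of 0.05 in limma in any of the 4 comparisons. For CON-LFD against DIO-HFD, 0% of all tested sites passed, and for each of the other 3 comparisons 0.00305% did. At an unadjusted p under 0.05, 3 member sites were higher and 1 lower in CON-LFD than in DIO-HFD, where 6.00% of all tested sites were higher and 1.76% lower. In DIO-LFD 7 were higher and 0 lower, against 7.92% and 2.16% of all sites. In DIO-VSG 20 of 76 were higher and 3 lower, against 20.2% and 4.85% of all sites. Between DIO-VSG and DIO-LFD 0 were higher and 1 was lower, against 2.42% and 1.55%. The members' shares were thus near those of the whole table.

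The 20 higher sites in DIO-VSG were 7 of Notch1, 7 of Jag2, 3 of Notch4 and 1 each of Dll3, Dll4 and Rbpj, and the 3 lower ones were 2 of Dll4 and 1 of Rbpj. Many are neighbors on the same fragment and are not independent. With each gene entered once per class as the mean M of its sites (15 rows for members), 4 rows had an unadjusted p under 0.05 in DIO-VSG, all higher, where 26.9% of 9947 rows did. They were the Notch4 promoter (M difference 1.65, SE 0.432, adjusted p = 0.141), the Notch1 gene body (1.24, SE 0.453, adjusted p = 0.146), the Dll3 gene body (0.78, SE 0.325, adjusted p = 0.162) and the Jag2 gene body (1.097, SE 0.475, adjusted p = 0.169). In DIO-LFD only the Notch4 promoter was under 0.05 (1.18, SE 0.466, adjusted p = 0.481, background 10.1%), and in CON-LFD 0 rows were (background 6.98%), nor were any between DIO-VSG and DIO-LFD (background 4.97%). Without DIO-HFD replicate 1, 6 rows passed the adjusted threshold in DIO-VSG (background 34.8%), 4 in DIO-LFD (18.6%) and 2 in CON-LFD (15.7%), all higher. In DIO-VSG they were the Notch4 promoter (2.11, adjusted p = 0.00119) and gene body, the Notch1 gene body (1.76, adjusted p = 0.00158), the Dll3 gene body (1.14, adjusted p = 0.00276), and the Jag2 gene body (1.61, adjusted p = 0.00479) and promoter. In DIO-LFD the Notch4 promoter gave 1.64 (adjusted p = 0.0109).

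The direction of these differences was shared with the whole table. The median level of all tested sites was higher than in DIO-HFD by 4.74 points in CON-LFD, 4.78 in DIO-LFD and 7.69 in DIO-VSG, and higher by 2.91 in DIO-VSG than in DIO-LFD. The median M difference of member sites from DIO-HFD was 0.24, 0.39 and 0.39, next to 0.29, 0.30 and 0.48 for all sites. These medians were 0.38, 0.56 and 0.53 for member sites and 0.51, 0.53 and 0.71 for all sites without DIO-HFD replicate 1. The mean over the 24 tested member promoter sites was higher than in DIO-HFD by 2.48, 3.79 and 4.51 points, next to 1.75, 1.89 and 2.91 for all tested promoter sites. Of those 24 sites, 18 were in CCGG, and over them the difference of DIO-VSG was 1.55 points. The gene body mean was higher by 1.91, 3.59 and 4.54 points, next to 3.94, 4.22 and 6.00 for all tested gene body sites. Over gene body sites within the span of the own gene, which leaves out those of Dll4, the difference of DIO-VSG was 11.3 points. This selection was made after seeing the data, and no value for all genes under the same restriction is given.

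Centering the levels of each mouse on their own median takes the same shift in points from every site, whatever its class. Means that differed by less than the shift therefore turn negative by construction. The member promoter differences became -2.26, -0.994 and -3.179 points. The gene body mean of all members turned as well. The 11.3 points over sites within the own gene exceed the shift of 7.69, but that selection leaves out the 20 Dll4 sites with the gene body flag. Over those, DIO-VSG minus DIO-HFD was -3.62 points, so the 11.3 points do not describe the members as a whole. For the limma tests, each mouse was centered on its median M, which is not the same shift in points. After that centering, 12 member sites were higher and 11 lower in DIO-VSG at an unadjusted p under 0.05.

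Without DIO-HFD replicate 1, 12 member sites passed the adjusted threshold in CON-LFD (12.0% of all sites), 13 in DIO-LFD (14.6%) and 31 in DIO-VSG (34.4%). All 12 and 13 were higher, and in DIO-VSG 26 were higher and 5 lower. The 5 lower sites were all upstream of Dll4, and the 26 higher ones were 11 of Jag2, 8 of Notch1, 3 of Notch4, 3 of Dll3 and 1 of Dll4. Neither Dll1, Jag1, Notch3 nor Rbpj had a site past the threshold.

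**Figure D4:**
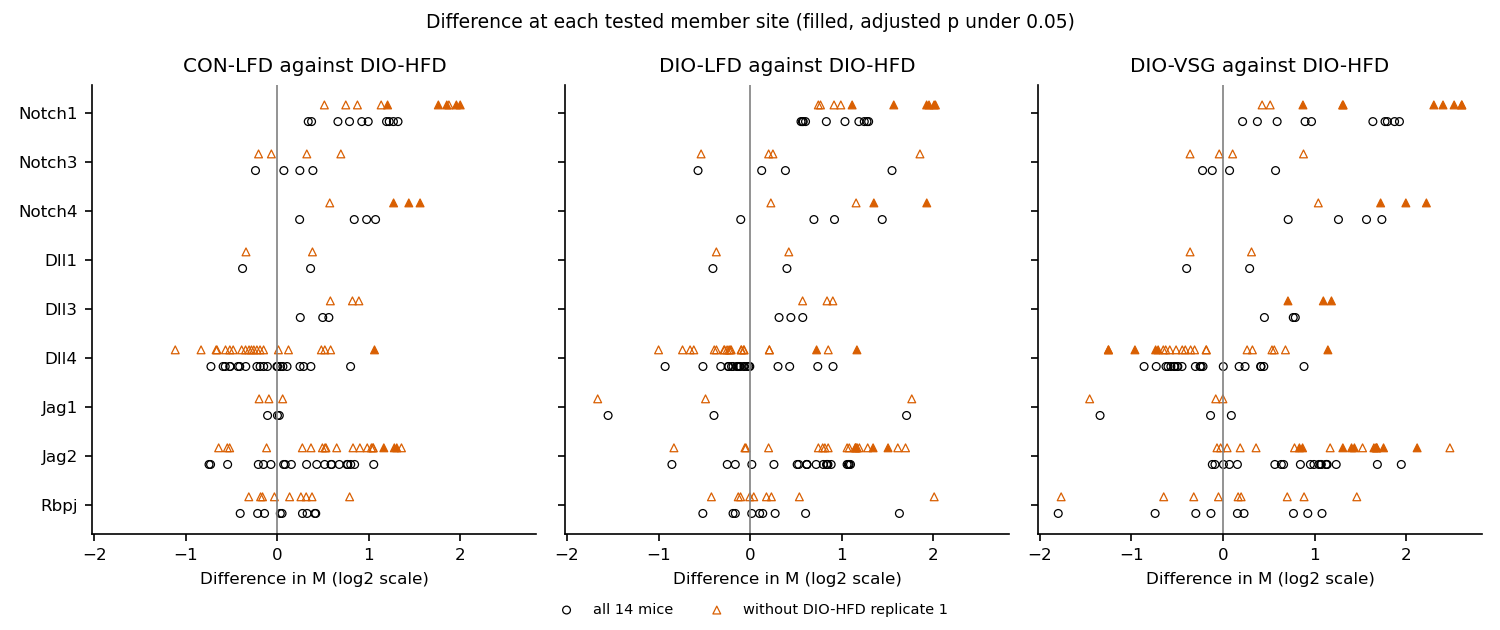
Difference in M (log2 scale) from DIO-HFD at each of the 76 tested member sites, by gene, with all 14 mice (circles) and without DIO-HFD replicate 1 (triangles); filled symbols have an adjusted p under 0.05. No circle is filled, whereas 12, 13 and 31 triangles are, and the lower ones in DIO-VSG are sites upstream of Dll4.

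The wider Notch pathway was described by a list of genes. Of 60 listed pathway genes (proteases, coactivators, corepressors, glycosyltransferases, regulators of ligands and targets), 36 had tested sites, 433 in all. None passed the adjusted threshold in any comparison. At an unadjusted p under 0.05, 36 of the 433 sites were higher and 3 lower in CON-LFD than in DIO-HFD, where 6.00% and 1.76% of all tested sites were. In DIO-LFD 52 were higher and 5 lower (7.92% and 2.16% of all sites), and in DIO-VSG 120 and 15 (20.2% and 4.85%). Between DIO-VSG and DIO-LFD 3 were higher and 6 lower (2.42% and 1.55%). Without DIO-HFD replicate 1, 73 sites passed the adjusted threshold in CON-LFD, 91 in DIO-LFD and 217 in DIO-VSG, where 12.0%, 14.6% and 34.4% of all sites did. Dtx1, a ubiquitin ligase of the Deltex family that binds Notch, had 10.1%, 9.84%, 7.75% and 7.25% in DIO-HFD at its gene body site chr5:120710683. All mice of the other groups were higher there, with 14.4% to 22.7% in CON-LFD, 23.2% to 28.5% in DIO-LFD and 15.3% to 25.7% in DIO-VSG. Its M differences were 1.19 (SE 0.313, adjusted p = 0.611), 1.81 (SE 0.313, adjusted p = 0.382) and 1.25 (SE 0.290, adjusted p = 0.150), and without replicate 1 they were 1.27 (adjusted p = 0.0264), 1.88 (adjusted p = 0.00833) and 1.33 (adjusted p = 0.00574).

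Mfng, a glycosyltransferase of the Fringe family that modifies Notch receptors, had 72.5%, 47.2%, 44.4% and 53.6% in DIO-HFD and 83.1%, 88.9% and 80% in DIO-LFD at chr15:78787655 (M difference 2.08, SE 0.415, adjusted p = 0.437). This site is flagged as gene body but lies upstream, at -14181 bp from the Mfng start, so the flag need not refer to Mfng. At the same site DIO-VSG had 75.8%, 80%, 83.9% and 81.3% (1.71, SE 0.385, adjusted p = 0.150). Hes3, a repressor of the Hes family, was an exception at its promoter site chr4:152291047, with 10.6%, 19.2%, 29.3% and 22.8% in DIO-HFD and 7.72%, 6.75%, 9.21% and 6.47% in DIO-VSG (-1.48, SE 0.352, adjusted p = 0.150). Dlk2, a noncanonical ligand, had 71.1%, 67.0%, 58.8% and 63% in DIO-HFD and 91.9%, 85.9% and 79.2% in CON-LFD at chr17:46307180 (1.71, SE 0.370, adjusted p = 0.611). At the Dtx1, Mfng, Hes3 and Dlk2 sites no DIO-HFD mouse overlapped the groups compared with it here. These sites were picked for a small p, which favors such separation, and the share of sites without overlap in the whole table is not given. Without replicate 1 the M differences were 2.45 for DIO-LFD (adjusted p = 0.00659) and 2.07 for DIO-VSG (adjusted p = 0.00134) at Mfng, -1.81 at Hes3 (adjusted p = 0.00144) and 1.83 at Dlk2 (adjusted p = 0.0169).

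The mean of the 44 tested member gene body sites was set against the gene body means of 1575 genes with at least 5 such sites, over the 14 mice. The closest genes were Dpf1 (Pearson r 0.98, 7 sites), Mir7037 (0.97, 12 sites) and Lims2 (0.96, 19 sites). The median r over all genes was 0.79, so most gene bodies followed the same order of mice. In the RefSeq promoter sequences, the motif TGGGAA, the core that Rbpj binds, searched on either strand, was in 2 of the 12 windows of the 10 genes, both of Rbpj, and in 25.6% of 32851 windows of all genes. Of the member windows, 3 held a tested site (Dll4, Rbpj and Jag2).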

How the data were processed

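Reduced-representation bisulfite sequencing was measured in 14 mice, and groups followed the sample labels. Reads were aligned by the authors with Bismark (mm10), and calls came from methylKit; 1 CON-LFD and 1 DIO-LFD mouse were left out. They deposited levels as a fraction, the methylated share of reads per site and mouse, with no normalization. No counts are given, so depth is unknown, and whether bases filled in at MspI ends were trimmed is not given in the sources used here. Of 75761 sites, 75749 were at the C of a CpG in mm10.

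Levels b were converted to M = log2((b + 0.01)/(1 − b + 0.01)) wherever the standard deviation reached 0.05 (65610 sites). A single limma 3.58.1 model (R 4.3.3) held all 4 groups, and p-values were adjusted over all tested sites or, for the mean M of each gene and class, over 9947 rows. The fit was tested on simulated data. Promoters followed the promoter flag of the table, and gene bodies the exon or intron flag without it. Gene spans came from GENCODE and sequences from the RefSeq mm10 assembly, read with pysam 0.24.0; Python 3.11.15 and Matplotlib 3.10.9 were also used.

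Sites named were, for each comparison, the 3 member sites with the smallest p, and for each member and class the site with the largest standard deviation. Other sites, the MspI fragments, the groups of neighboring sites and the sites at Rbpj and in the Notch1 fragment were named after their values were seen. Pathway genes were named among the 3 sites with the smallest p per comparison, and not all are given. The members and the lists were chosen with earlier results of these data known. Same-numbered mice did not deviate together (19 pairs, r from -0.08 to 0.20, 4 over 0.1), so replicate numbers were not taken as pairs.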

Additional observations from a re-analysis of the deposited data

Results flagged for a closer look

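In groups of 4 mice, the gap between an extreme mouse and the mouse next to it, as a share of the whole range, was computed, and in 5 of 48 tested groups it exceeded the 95% critical value of Dixon, where chance gives about 1 in 20. The flagged sites are among those named for a large standard deviation or a small p, so that rate need not hold for them. At the Notch4 site chr17:34564997 the DIO-HFD ratio was 0.847, with 76.5% in replicate 1 and 47.0% to 51.5% in the others. At the Dll3 site chr7:28300297 the DIO-HFD ratio was 0.858, with 87.6% in replicate 1 and 67.5% to 70.4% in the others. At the Notch3 site chr17:32162500 the DIO-HFD ratio was 0.867, with 43.8% in replicate 3 and 22.6% to 25.4% in the others. At the Notch4 site chr17:34564997 the DIO-VSG ratio was 0.910, with 76.7% in replicate 2 and 80.7% to 81.1% in the others. At the Dll1 site chr17:15376283 the DIO-VSG ratio was 0.958, with 43.7% in replicate 4 and 53.0% to 53.4% in the others.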

How the results depend on the processing

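The count of 0 member sites past the adjusted threshold was kept under every planned setting except the removal of DIO-HFD replicate 1. Leaving out each mouse in turn gave member site counts against DIO-HFD of 0 to 12 (CON-LFD), 0 to 13 (DIO-LFD) and 0 to 31 (DIO-VSG), and 0 to 2, 0 to 4 and 0 to 6 genes and classes, with every upper value that without DIO-HFD replicate 1. Sites with an unadjusted p under 0.05 then numbered 1 to 25, 1 to 29 and 13 to 37, and 0 to 4 for DIO-VSG against DIO-LFD. Fitting only the 2 groups compared gave 0, 1 and, for DIO-VSG against DIO-LFD, 2 such sites. A minimum standard deviation of 0.1 gave 1, 1, 11 and 0, and sites outside CCGG, chosen after seeing the data, 1, 2, 14 and 0, with fewer sites tested in each.

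With the replicate number as a block, 3 member sites had an unadjusted p under 0.05 for DIO-LFD, and the numbers did not pair the mice; the block changed no other call by over 1.5 times.

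In percentage points, the promoter mean difference with a minimum standard deviation of 0.1 was 6.01, 8.58 and 10.8 for CON-LFD, DIO-LFD and DIO-VSG against DIO-HFD and 2.17 for DIO-VSG against DIO-LFD, and the gene body difference 11.2 for DIO-LFD, 17.8 for DIO-VSG and 6.60 between the latter groups. Centering each mouse turned the promoter differences to -2.26, -0.994, -3.179 and -2.18 and those of gene bodies to -2.84, -1.20, -3.16 and -1.96. Outside CCGG the promoter differences were 7.11, 9.94, 13.4 and 3.48. Promoters from -2000 to 500 bp gave 1.25 for DIO-VSG against DIO-HFD. Gene body sites within the span of the own gene (also chosen after seeing the data) gave 11.3 for DIO-VSG against DIO-HFD and 3.92 against DIO-LFD, and each gene counted once 3.08 for the latter. Beyond these settings, the cause of these changes was not tested. The unknown depth limits every level, above all those at exactly 0% or 100%.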
